A study of Mus musculus with 7 samples.

Results

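The bone morphogenetic protein (Bmp) ligands Bmp2, Bmp4, Bmp5 and Bmp7, the secreted antagonists Grem1 and Nog, and the target genes Id1, Id3 and Smad6 were followed in 7 whole colon tumors of mice. The 9 genes were chosen by name, by matching the Ensembl identifiers of the deposited table to symbols, and they are 9 of the 43346 genes listed. All 9 had enough counts to be tested, among 15810 genes of the series.

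Bmp ligands are secreted proteins that bind pairs of type I and type II receptors on neighboring cells, which then phosphorylate Smad1, Smad5 and Smad9. These Smads enter the nucleus with Smad4 and switch on Id genes, whose products hold back transcription factors of the helix-loop-helix class, and Smad6, which dampens the same pathway. In the colon, Bmp signaling is known to be high toward the crypt surface, where it favors differentiation, and to be kept low at the crypt base by antagonists such as gremlin and noggin that are made by cells beneath the epithelium.

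The tumors came from wild-type recipients, C57BL6/J per the labels and congenic CD45.1 per the methods, that had been lethally irradiated and given bone marrow (BM) from a C57BL6/J line marked by CD45.2, 3 from mice with Dnmt3a(+/+) BM and 4 from mice with Dnmt3a(+/-) BM. All donors carried Mx1-Cre, an interferon-inducible deleter, and donors of both genotypes received poly(I:C). In the Dnmt3a(+/-) donors this had removed 1 floxed Dnmt3a allele before the marrow was taken. All recipients, 8 weeks old per the labels and younger per the methods, then received the colon carcinogen azoxymethane (AOM, 10 mg/kg, once) and drank 3% dextran sulfate sodium (DSS), which inflames the colon, in 3 cycles. Epithelial, stromal and vascular cells of these tumors belong to hosts whose own Dnmt3a was intact, so the deletion is expected only in cells derived from the graft. The comparison asks how tumor transcripts differ with the genotype of the graft.

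Transplantation had been done in the experiments BMT18 (Dnmt3a(+/+) replicates 1 and 2, Dnmt3a(+/-) replicates 1 and 2) and BMT8 (Dnmt3a(+/+) replicate 3, Dnmt3a(+/-) replicates 3 and 4). The experiments also differed in sex-linked transcripts: Xist was at most 0.200 CPM (counts scaled to library size) in the 4 tumors of BMT18 and at 175 to 265 CPM in the 3 tumors of BMT8. The summed CPM of Ddx3y, Eif2s3y, Uty and Kdm5d, which lie on the Y chromosome, were 115 to 157 in BMT18 and 0 to 3.55 in BMT8. Experiment and sex-linked expression therefore cannot be told apart in these tumors. Total counts ranged from 38472738 to 64314999 per tumor. The column names of Dnmt3a(+/-) replicates 2, 3 and 4 end in a further suffix that those of the other tumors lack. What this suffix stands for is not given, and its part in the values was not tested. Dnmt3a itself was at 20.2 to 24.3 CPM with Dnmt3a(+/+) BM and at 22.0 to 43.0 CPM with Dnmt3a(+/-) BM, which is no check of a deletion confined to the graft. Dnmt3a(+/-) replicate 2 stood apart from the Dnmt3a(+/+) tumors, with Spearman correlations of 0.902 to 0.918. Its summed markers of fibroblasts, endothelium and leukocytes were the highest of all tumors, and those of epithelium and differentiated colonocytes the lowest. Fold changes that rest on this tumor are therefore given with and without it. In whole tumors, a lower value from fewer cells of a type cannot be told apart from less RNA per cell.

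Levels are CPM scaled to TMM library sizes, and fold changes are log2 differences of Dnmt3a(+/-) minus Dnmt3a(+/+) BM from edgeR (quasi-likelihood test), whose p-values were adjusted by Benjamini-Hochberg over 15810 genes. Calls required an adjusted p under 0.05 together with a fold change beyond 1 on the log2 scale in either direction. No gene met both conditions (0 of 15810, or 0%), and therefore none of the 9. At an unadjusted p under 0.05, edgeR found 922 genes higher (5.83%) and 822 lower (5.2%) with Dnmt3a(+/-) BM. Of the 9 genes, 2 were in the first set (Bmp4 and Bmp7) and 0 in the second. DESeq2, run as an alternative, called 299 of 16377 genes (1.83%), of which Bmp7 was the only one of the 9. The fold change was above 0 for 7 of the 9 genes and below 0 for Bmp2 and Id1, with a median of 0.71 against 0.00252 over all genes tested.

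**Figure D1:**
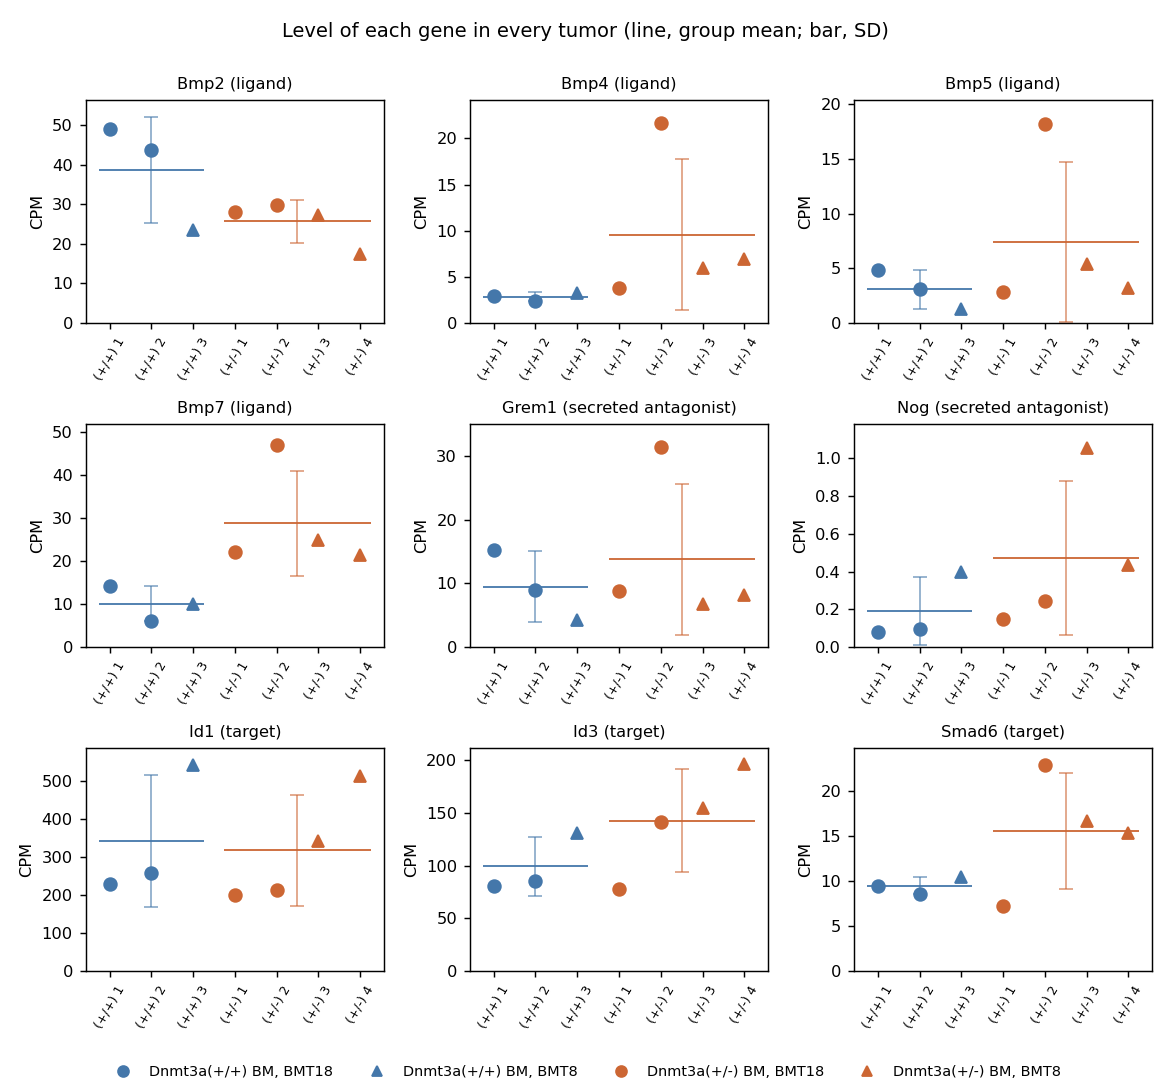
CPM of each of the 9 genes in every tumor, by graft (color) and transplantation experiment (symbol), with the group mean as a line and the SD as a bar. Bmp4 and Bmp7 are the 2 genes whose Dnmt3a(+/-) tumors lie above all Dnmt3a(+/+) tumors, and Bmp4, Bmp5, Bmp7, Grem1 and Smad6 each have their highest value in Dnmt3a(+/-) replicate 2.

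Bases upstream of the start of transcription are shown for the 4 genes with a RefSeq promoter entry (GRCm38.p6) among the 5 that peaked in Dnmt3a(+/-) replicate 2. Each line gives 250 bases, 5′ to 3′ on the strand of the gene, up to the base before the RefSeq start. Capitals mark GGCGCC, a GC-rich Smad-binding motif that reads the same on both strands, CAGAC or its reverse complement GTCTG, the Smad box, and CTTTG or CAAAG, the core bound by TCF/LEF factors.
Bmp4 (chr14:46390670-46390919, minus strand): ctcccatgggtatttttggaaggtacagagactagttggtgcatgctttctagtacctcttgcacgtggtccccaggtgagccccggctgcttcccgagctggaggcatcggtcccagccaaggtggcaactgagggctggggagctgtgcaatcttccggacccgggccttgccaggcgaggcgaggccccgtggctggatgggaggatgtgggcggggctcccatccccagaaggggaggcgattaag
Bmp5 (chr9:75775115-75775364, plus strand): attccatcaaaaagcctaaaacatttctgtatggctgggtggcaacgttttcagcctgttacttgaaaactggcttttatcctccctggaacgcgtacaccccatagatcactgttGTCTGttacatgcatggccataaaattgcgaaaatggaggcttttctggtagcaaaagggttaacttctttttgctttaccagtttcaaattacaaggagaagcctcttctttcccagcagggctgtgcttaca
Grem1 (chr2:113758649-113758898, minus strand): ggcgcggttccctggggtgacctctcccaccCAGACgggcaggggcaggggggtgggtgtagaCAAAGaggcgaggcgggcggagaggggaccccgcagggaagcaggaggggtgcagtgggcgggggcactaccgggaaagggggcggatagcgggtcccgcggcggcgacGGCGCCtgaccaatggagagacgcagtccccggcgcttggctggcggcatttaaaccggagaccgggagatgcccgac
Smad6 (chr9:64022060-64022309, minus strand): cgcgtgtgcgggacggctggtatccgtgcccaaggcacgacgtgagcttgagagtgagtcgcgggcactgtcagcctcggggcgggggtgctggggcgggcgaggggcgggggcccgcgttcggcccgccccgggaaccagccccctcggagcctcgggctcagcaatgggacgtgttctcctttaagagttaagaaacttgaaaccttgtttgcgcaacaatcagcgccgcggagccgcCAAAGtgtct
Grem1, on chromosome 2, held all 3 motifs in this window, with CAGAC starting 219, CAAAG 187 and GGCGCC 78 bases upstream of the start. Bmp5 held GTCTG at 134 bases, Smad6 held CAAAG at 10 bases, and none of the letters were in the window of Bmp4. Of 32851 mouse promoter windows of the same length, 9.59% held GGCGCC, 42.2% held CAGAC or GTCTG, and 48.6% held CTTTG or CAAAG. These matches describe the letters of the windows, and no binding was measured here. The last base shown for Bmp5 is the first of its GENCODE M21 transcript. The RefSeq window of Id3 lies within its GENCODE M21 gene and is not shown. Bmp2, Bmp7, Nog and Id1 have none in the table used.

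Among the ligands, Bmp7, an epithelial and mesenchymal Bmp of the group that also holds Bmp5 and Bmp6, showed the most separated values. It is encoded at chr2:172868012-172940321 (minus strand, GRCm38, GENCODE M21). Bmp7 was at 14.1, 6.07 and 9.97 CPM in Dnmt3a(+/+) replicates 1 to 3 and at 22.0, 46.9, 24.8 and 21.4 CPM in Dnmt3a(+/-) replicates 1 to 4. All 4 tumors with Dnmt3a(+/-) BM were above all 3 with Dnmt3a(+/+) BM, and replicate 2 was highest. The means were 28.8 ± 12.2 CPM (SD, n = 4) and 10.0 ± 4.02 CPM (SD, n = 3), a ratio of 2.86. The log2 fold change was 1.52 (SE 0.40, edgeR unadjusted p = 0.00543, adjusted p = 0.361), so Bmp7 was not called. Over all 35 splits of the tumors, an exact permutation test gave p = 0.0286, two-sided, the smallest this design allows. DESeq2 called it with a log2 fold change of 1.54 and an adjusted p of 0.0174. That call was lost on leaving out Dnmt3a(+/+) replicate 2 (DESeq2 adjusted p = 0.234), Dnmt3a(+/-) replicate 2 (0.0579) or Dnmt3a(+/-) replicate 3 (0.0523), and over the other 4 tumors left out it held with adjusted p from 0.00879 to 0.0481. Over the edgeR settings and tumors left out, the adjusted p of Bmp7 ranged from 0.236 to 0.817. Without Dnmt3a(+/-) replicate 2 the edgeR log2 fold change was 1.21, and the mean CPM of the other 3 tumors was 22.7.

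Bmp4, which in the colon is made mainly by stromal cells under the epithelium, lies at chr14:46383520-46390669 (minus strand). It was at 2.93, 2.34 and 3.27 CPM with Dnmt3a(+/+) BM and at 3.74, 21.7, 5.95 and 6.95 CPM with Dnmt3a(+/-) BM. The groups did not overlap, the lowest Dnmt3a(+/-) tumor lay just above the highest Dnmt3a(+/+) tumor, and replicate 2 held 56.6% of the summed CPM of its group. This gave a log2 fold change of 1.75 (SE 0.62, edgeR unadjusted p = 0.0231, adjusted p = 0.406), with an exact two-sided permutation p of 0.0571. Without Dnmt3a(+/-) replicate 2 it was 0.99. DESeq2 gave an adjusted p of 0.0842 and did not call it. Leaving out Dnmt3a(+/-) replicate 1, the lowest of its group, DESeq2 called Bmp4 (log2 fold change 2.03, adjusted p = 0.00855), and with any other tumor left out its adjusted p was from 0.0972 to 0.442. In edgeR Bmp4 was not called under any setting or with any tumor left out.

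Groups that did not overlap were common over the table: 6.12% of genes tested were higher in every Dnmt3a(+/-) tumor than in any Dnmt3a(+/+) tumor, and 6.32% were lower. Of the 9 genes, 2 were higher in this way (Bmp4 and Bmp7) and 0 lower.

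Bmp5, a close relative of Bmp7 at chr9:75775364-75900310 (plus strand), was at 4.89, 3.09 and 1.28 CPM with Dnmt3a(+/+) BM. With Dnmt3a(+/-) BM it was at 2.87, 18.21, 5.42 and 3.16 CPM. The groups overlapped, and Dnmt3a(+/-) replicate 2 alone held 61.4% of the CPM of its group. Its log2 fold change was 1.26 (SE 0.78, edgeR adjusted p = 0.575), and 0.34 without that tumor.

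Bmp2, the ligand that differentiated colon epithelium makes near the crypt surface, had the opposite sign. It lies at chr2:133552159-133562885 (plus strand). Bmp2 was at 49.0, 43.7 and 23.4 CPM with Dnmt3a(+/+) BM and at 28.0, 29.8, 27.4 and 17.5 CPM with Dnmt3a(+/-) BM. Dnmt3a(+/+) replicate 3, of BMT8, fell among the Dnmt3a(+/-) tumors, and the other 2 lay above all of them. For Bmp2 the log2 fold change was -0.59 (SE 0.29, edgeR unadjusted p = 0.0780, adjusted p = 0.496), with an exact permutation p of 0.229. Without Dnmt3a(+/+) replicate 1 it was -0.39, and without Dnmt3a(+/+) replicate 3 it was -0.85 (edgeR adjusted p = 0.366).

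The make-up of the ligands was compared per length, as CPM per kb of merged exons. Bmp2 made up 69.6%, 78.7% and 60.7% of the mRNA of the 4 ligands in Dnmt3a(+/+) replicates 1 to 3. In Dnmt3a(+/-) replicates 1 to 4 its share was 50.1%, 24.5%, 43.2% and 34.9%. Bmp2 was thus the first ligand in every tumor with Dnmt3a(+/+) BM, and its share was lower in all 4 tumors with Dnmt3a(+/-) BM. Bmp7 held 17.7%, 9.68% and 22.9% with Dnmt3a(+/+) BM and 34.8%, 34.1%, 34.5% and 37.7% with Dnmt3a(+/-) BM. The Bmp7 shares of the Dnmt3a(+/-) tumors thus lay within a narrow range, also in replicate 2, whose summed ligand level was 34.2 CPM per kb against 14.1 to 17.9 in the other 3. The ratio of Bmp7 to Bmp2 per kb was 0.252 ± 0.127 (SD, n = 3) with Dnmt3a(+/+) BM and 0.991 ± 0.312 (SD, n = 4) with Dnmt3a(+/-) BM. Bmp7 exceeded Bmp2 per kb in Dnmt3a(+/-) replicates 2 and 4. Summed over the 4 ligands, the level overlapped between groups, at 10.8 to 19.8 CPM per kb with Dnmt3a(+/+) BM and 14.1 to 34.2 with Dnmt3a(+/-) BM. These shares are given as a description of the tumors, with no p. With the longest transcript as the length, the difference in mean share was -31.7 percentage points for Bmp2 and 18.77 for Bmp7, against -31.5 and 18.5 with merged exons.

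**Figure D2:**
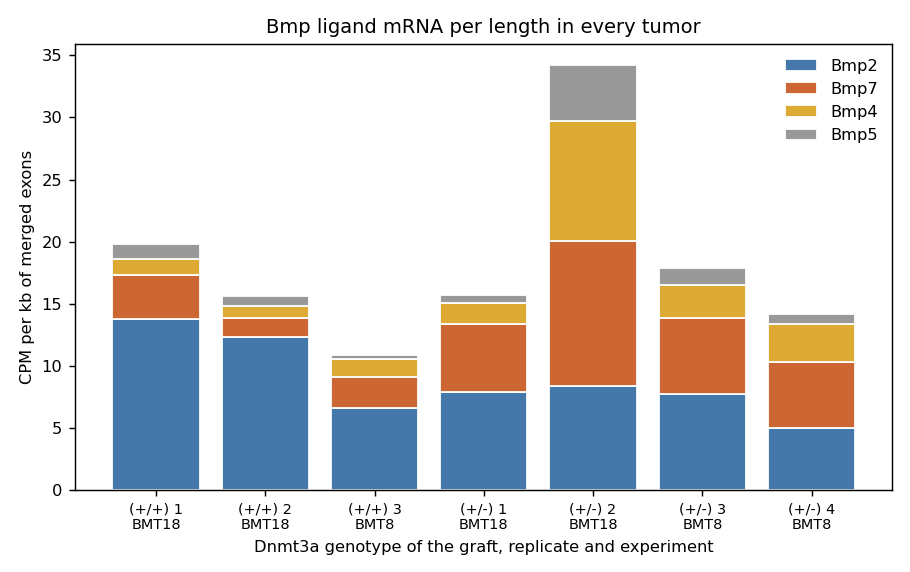
Stacked bars of Bmp2, Bmp7, Bmp4 and Bmp5 in CPM per kb of merged exons for each tumor, labeled by graft genotype, replicate and experiment. Bmp2 is the lower and larger segment with Dnmt3a(+/+) BM, at 60.7% to 78.7% of the bar, and 24.5% to 50.1% of it with Dnmt3a(+/-) BM.

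Of the antagonists, Grem1 encodes gremlin, which traps Bmp2, Bmp4 and Bmp7 and is made by fibroblasts and muscle cells around the crypt base. It lies at chr2:113746164-113758646 (minus strand). Grem1 was at 15.3, 8.93 and 4.25 CPM with Dnmt3a(+/+) BM and at 8.73, 31.4, 6.76 and 8.08 CPM with Dnmt3a(+/-) BM. Apart from Dnmt3a(+/-) replicate 2 the groups occupied the same range. A log2 fold change of 0.54 (SE 0.66, edgeR adjusted p = 0.811) turned to -0.24 without that tumor. Per kb, Grem1 stood at 0.139 ± 0.0457 (SD, n = 3) of the summed ligands with Dnmt3a(+/+) BM and at 0.146 ± 0.0544 (SD, n = 4) with Dnmt3a(+/-) BM.

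Nog encodes noggin, which binds Bmp ligands directly and lies at chr11:89300638-89302332 (minus strand). It was close to the detection limit, with 3, 6 and 13 counts in Dnmt3a(+/+) replicates 1 to 3 and 6, 12, 52 and 16 counts in Dnmt3a(+/-) replicates 1 to 4. In CPM these were 0.0806, 0.0937 and 0.398, and 0.150, 0.244, 1.06 and 0.433. The 3 tumors of BMT8 were the highest of all. For Nog the log2 fold change was 1.34 (SE 0.88, edgeR adjusted p = 0.600). It was 0.56 without Dnmt3a(+/-) replicate 3 and 2.40 without Dnmt3a(+/+) replicate 3.

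Id1 and Id3 were the most abundant of the 9 genes. Id1, at chr2:152736251-152737410 (plus strand), was at 228, 257 and 542 CPM with Dnmt3a(+/+) BM and at 199.8, 213, 342 and 514 CPM with Dnmt3a(+/-) BM. The groups spanned nearly the same range, and the 3 highest tumors were those of BMT8. Its log2 fold change was -0.11 (SE 0.43, edgeR adjusted p = 0.953), and it turned to 0.38 without Dnmt3a(+/+) replicate 3, to 0.080 without Dnmt3a(+/-) replicate 1, to 0.069 without Dnmt3a(+/-) replicate 2 and to 0.11 on raw library sizes, under which the median of all genes was 0.21. Within each experiment, every Dnmt3a(+/-) tumor was below every Dnmt3a(+/+) tumor for Id1, as for 13.8% of all genes tested. With the experiment in the model the log2 fold change of Id1 was -0.28 (edgeR adjusted p = 0.485).

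Id3, at chr4:136143497-136145755 (plus strand), was at 80.9, 85.3 and 132 CPM with Dnmt3a(+/+) BM. With Dnmt3a(+/-) BM it was at 78.1, 142, 155 and 197 CPM. Replicates 2 to 4 of this group lay above all Dnmt3a(+/+) tumors and replicate 1 below them. For Id3 the log2 fold change was 0.53 (SE 0.32, edgeR adjusted p = 0.577), with an exact permutation p of 0.257. It was 0.33 without Dnmt3a(+/-) replicate 4, 0.75 without Dnmt3a(+/-) replicate 1 and 0.78 without Dnmt3a(+/+) replicate 3. Id1 and Id3 were not in a fixed ratio: per kb, Id1 was 4.35 to 6.36 times Id3 with Dnmt3a(+/+) BM and 2.32 to 4.04 times with Dnmt3a(+/-) BM.

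Smad6, the inhibitory Smad that competes at Bmp receptors, lies at chr9:63953076-64022059 (minus strand). It was at 9.46, 8.52 and 10.4 CPM with Dnmt3a(+/+) BM, a spread of 0.923 CPM (SD, n = 3). With Dnmt3a(+/-) BM it was at 7.19, 22.8, 16.6 and 15.3 CPM. As for Id3, replicates 2 to 4 were above all Dnmt3a(+/+) tumors and replicate 1 was below them. Replicates 2 to 4 are also the tumors whose column names carry the further suffix. This was a log2 fold change of 0.71 (SE 0.37, edgeR unadjusted p = 0.0901, adjusted p = 0.516). It was 0.50 without Dnmt3a(+/-) replicate 2 and 0.97 without Dnmt3a(+/-) replicate 1 (edgeR adjusted p = 0.227). In the latter setting the adjusted p of DESeq2 was 0.0221 at a log2 fold change of 0.96, below the fold change that a call required.

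**Figure D3:**
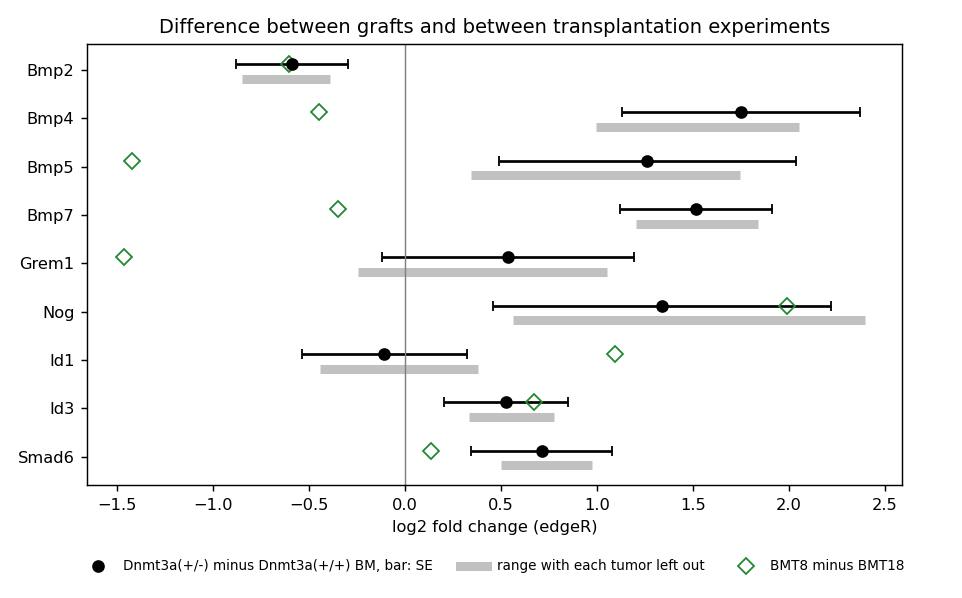
The log2 fold change of each gene between grafts (black, with SE), its range with each tumor left out (gray) and its log2 difference between experiments with the group in the model (open diamond). The gray range crosses 0 for Grem1 (-0.24 to 1.05) and Id1 (-0.44 to 0.38). The diamonds of Id1 (1.10) and Nog (1.99) lie far above 0, and those of Grem1 (-1.46) and Bmp5 (-1.42) far below.

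Between the transplantation experiments, some of these genes differed more than between grafts. This comparison was chosen after the values of Id1 had been seen, and the group was kept in the model. At an unadjusted p under 0.05, edgeR found 10.8% of genes higher and 8.59% lower in BMT8. Of the 9 genes, Id1, Id3 and Nog were higher and Bmp2 and Grem1 lower at that threshold, and none of them at an adjusted p under 0.05. Xist was the 1 gene of the table with an adjusted p under 0.05 (edgeR, 0.00587), and it was named after its values were seen. Id1 averaged 466 ± 108 CPM (SD, n = 3) in BMT8 and 224 ± 24.5 CPM (SD, n = 4) in BMT18. Its log2 difference was 1.10 (SE 0.17, edgeR unadjusted p = 0.000495, adjusted p = 0.191). The exact permutation test between experiments gave p = 0.0286, the smallest possible, with all 3 tumors of BMT8 above all 4 of BMT18. With each tumor left out, the log2 difference of Id1 stayed between 0.95 and 1.24. Xist and the Y-linked genes separated the tumors in the same way, so a difference of Id1 with experiment cannot be told apart from one with sex.

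Nog was separated between experiments as fully as Id1, with a log2 difference of 1.99 (SE 0.50, edgeR adjusted p = 0.191) and the same exact permutation p of 0.0286, at 3 to 52 counts. Id3 had a log2 difference of 0.67 (SE 0.22) and an adjusted p of 0.205 by edgeR, and its values overlapped. The log2 difference was -1.46 for Grem1 (SE 0.47, edgeR adjusted p = 0.201) and -0.60 for Bmp2 (SE 0.22, edgeR adjusted p = 0.226). Nog, Grem1 and Bmp2 did not overlap between experiments either, Nog and Id1 being higher in BMT8 like 7.69% of genes tested and Grem1 and Bmp2 lower like 6.84%. Bmp4 (-0.45), Bmp7 (-0.35), Smad6 (0.14) and Bmp5 (-1.42) had an unadjusted p over 0.05.

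The difference between grafts was also read within each experiment. In BMT18, with 2 tumors a group, the edgeR log2 fold change was 1.79 for Bmp7, 2.297 for Bmp4 and -0.67 for Bmp2, each with an adjusted p of 0.492. In BMT8, with 1 tumor against 2 and no test, the difference of mean log2 CPM was 1.203 for Bmp7, 0.96 for Bmp4 and -0.094 for Bmp2. Bmp4, Bmp7 and Nog were higher in every Dnmt3a(+/-) tumor than in any Dnmt3a(+/+) tumor of the same experiment, as were 12.5% of all genes tested. A test of whether the graft difference itself differed between experiments was under an unadjusted p of 0.05 for 4.62% of genes and for 0 of the 9, whose adjusted p were all 1.00 by edgeR.

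Per length, the order of the mean levels over the 7 tumors was Id1, Id3, Bmp2, Bmp7, Smad6, Bmp4, Grem1, Bmp5 and Nog. Id1 stood at 295 ± 150 CPM per kb (SD, n = 3) with Dnmt3a(+/+) BM and 274 ± 126 (SD, n = 4) with Dnmt3a(+/-) BM. Id3 stood at 55.4 ± 15.6 and 79.8 ± 27.4 CPM per kb. Id1 exceeded Id3, Id3 exceeded Bmp2, Grem1 exceeded Bmp5 and Bmp5 exceeded Nog in 7 of 7 tumors. The middle of the order was not resolved, since Bmp2 was above Bmp7 in 5 of 7 tumors and Smad6 above Bmp4 in 6, and part of it turned with the graft. Bmp7 was above Smad6 in 1 of 3 tumors with Dnmt3a(+/+) BM and in 4 of 4 with Dnmt3a(+/-) BM, and Bmp4 was above Grem1 in 1 of 3 and in 3 of 4. With Dnmt3a(+/-) BM, Bmp2 (7.22 ± 1.56 CPM per kb) and Bmp7 (7.15 ± 3.03) differed by less than their spread.

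The other genes of the pathway were counted from a list of 46, of which 37 were tested. Among these, 24 had a fold change above 0 and 13 below 0, with a median log2 fold change of 0.14 against 0.00252 over all genes tested. None was called, 4 were higher at an unadjusted p under 0.05 and 0 lower, against 5.83% higher and 5.2% lower over all genes tested. Without Dnmt3a(+/+) replicate 2 the count of higher genes was 1, and without Dnmt3a(+/-) replicate 1 it was 7. The 9 not tested, Bmp10, Bmp15, Gdf2, Gdf5, Gdf6, Gdf7, Bmpr1b, Sost and Msx2, reached at most 0.948 CPM in any tumor.

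The higher genes were a pair of receptors of endothelial cells, 1 Smad and 1 target. Acvrl1, the type I receptor of endothelium for Bmp9 and Bmp10, was at 2.51 to 3.87 CPM with Dnmt3a(+/+) BM. With Dnmt3a(+/-) BM it was at 4.32, 18.09, 4.77 and 6.11 CPM, without overlap (log2 fold change 1.47, SE 0.57, edgeR adjusted p = 0.425). Without Dnmt3a(+/-) replicate 2 the fold change was 0.78. Its co-receptor Eng, endoglin, was at 1.75 to 4.80 CPM with Dnmt3a(+/+) BM and at 4.22, 28.8, 5.22 and 14.5 CPM with Dnmt3a(+/-) BM, with overlap. Its log2 fold change was 2.16 (SE 0.76, edgeR adjusted p = 0.406), and 1.46 without Dnmt3a(+/-) replicate 2, which held 54.6% of the CPM of its group. Gdf2, which encodes the ligand Bmp9, and Bmp10 were at or near 0 counts in the tumors.

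Smad9, a Smad of the Bmp branch, was at 0.860, 0.921 and 0.887 CPM with Dnmt3a(+/+) BM and at 1.10, 3.30, 1.97 and 2.00 CPM with Dnmt3a(+/-) BM. The groups did not overlap (log2 fold change 1.23, SE 0.45, edgeR adjusted p = 0.408). Without Dnmt3a(+/-) replicate 2 the log2 fold change of Smad9 was 0.96. Msx1, a homeobox target of Bmp4 in developing tissues, was at 2.55, 1.12 and 2.42 CPM with Dnmt3a(+/+) BM. With Dnmt3a(+/-) BM Msx1 was at 3.92, 9.96, 13.4 and 6.57 CPM, above all the others and highest in replicate 3 rather than in replicate 2. Its log2 fold change was 2.06 (SE 0.52, edgeR unadjusted p = 0.00437, adjusted p = 0.361), and DESeq2 called it with an adjusted p of 0.00394. Over the edgeR settings and tumors left out, the adjusted p of Msx1 ranged from 0.179 to 0.817.

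The broadly expressed receptors differed by little. Bmpr1a, the main type I receptor for Bmp2 and Bmp4, was at 45.6 to 78.2 CPM with Dnmt3a(+/+) BM and at 45.7 to 77.6 with Dnmt3a(+/-) BM. The resulting difference of -0.036 on the log2 scale (SE 0.26) was within the spread of the tumors. Bmpr2, the type II receptor, had 0.40 (SE 0.18, edgeR adjusted p = 0.471), and its values overlapped. Within each experiment Bmpr2 was higher in every Dnmt3a(+/-) tumor than in any Dnmt3a(+/+) tumor, as were 12.5% of all genes tested. With the experiment in the model its log2 fold change was 0.46 (edgeR adjusted p = 0.263). The activin receptors that also bind Bmp ligands had log2 fold changes of 0.045 (Acvr1), -0.18 (Acvr2a) and 0.14 (Acvr2b) and an unadjusted p of 0.286 or more by edgeR. Of the other Id genes, Id2 had 0.28 (SE 0.30) and Id4 0.23 (SE 0.61). The 4 targets of the list that were tested all had a fold change above 0.

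**Figure D4:**
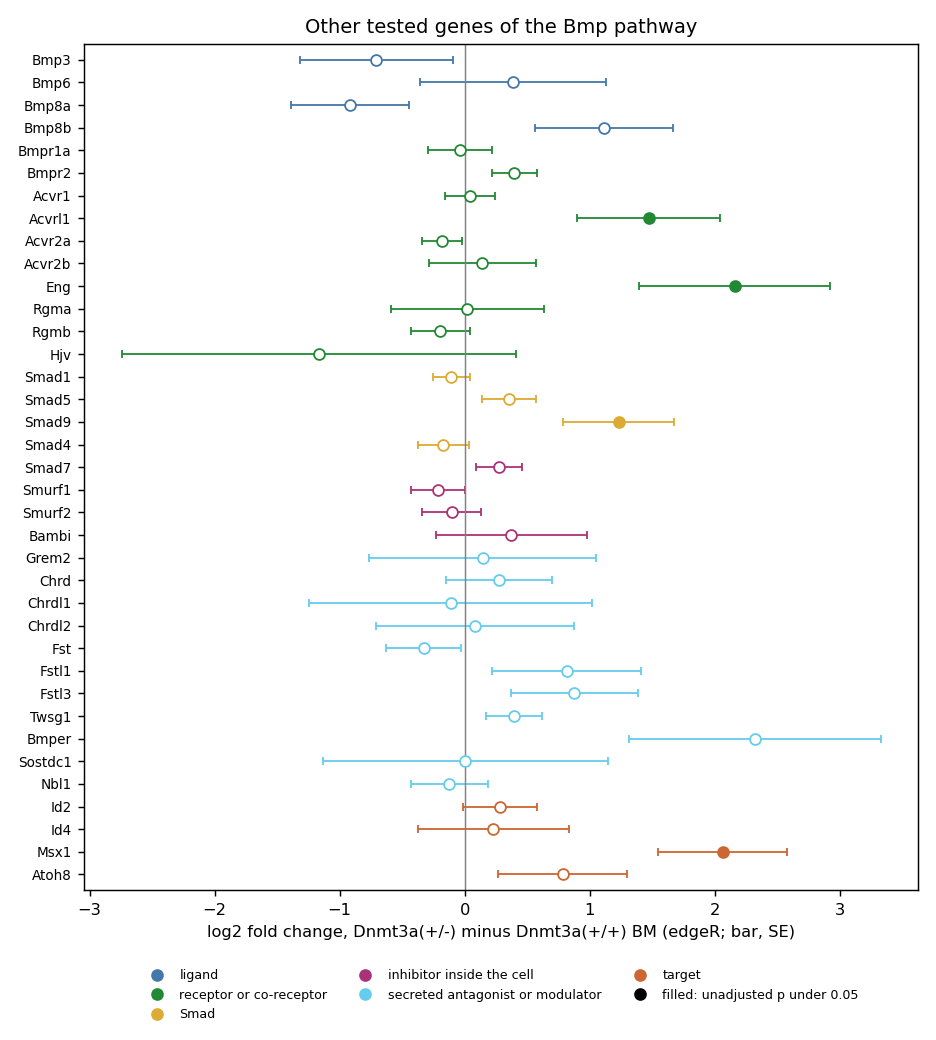
The log2 fold change with SE of the 37 tested genes of the list, colored by role, with filled points for an unadjusted p under 0.05. The filled points are Acvrl1 (1.47), Eng (2.16), Smad9 (1.23) and Msx1 (2.06), all above 0, and the receptors Bmpr1a, Bmpr2, Acvr1 and Acvr2a lie within 0.40 of 0.

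Markers of the cell types that make or receive Bmp signals were summed in each tumor, and some moved with the genes above. Fibroblast markers (10 of 10 tested, 8 with a fold change above 0) summed to 188 to 352 CPM with Dnmt3a(+/+) BM and to 262 to 1099 CPM with Dnmt3a(+/-) BM. Replicate 2 was far above the next tumor, at 399 CPM, and it was also the highest for Bmp4, Bmp5, Bmp7, Grem1 and Smad6. Pdgfra, the marker of fibroblasts and telocytes, was at 49.2 CPM there and at 2.69 to 13.7 CPM in the other tumors. Not every listed fibroblast gene peaked in that tumor. Dpt (5.72 CPM) and Pi16 (1.30) were higher in Dnmt3a(+/+) replicate 1, at 11.3 and 1.88 CPM. Fbln1, at 59.9 CPM, was little above Dnmt3a(+/-) replicate 1, at 57.7 CPM, and the other listed fibroblast genes were highest in replicate 2. Endothelial markers (10 of 10 above 0, 7 of them at an unadjusted p under 0.05, like 5.83% of all genes tested) summed to 18.5 to 38.5 CPM with Dnmt3a(+/+) BM and to 39.5 to 153 CPM with Dnmt3a(+/-) BM, without overlap. Without replicate 2 they reached 83.2 CPM and still did not overlap. The sums lay close, at 38.5 and 39.5 CPM. Gene by gene, 4 of the 10 endothelial markers were higher without overlap, against 6.12% of all genes tested. The part of these cells in the values of Bmp4, Bmp5, Bmp7, Grem1, Id3, Smad6, Acvrl1 and Eng was not tested.

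Smooth muscle markers were at 43.1 CPM in Dnmt3a(+/+) replicate 3 and at 272 to 1236 CPM in the other 6 tumors. Desmin (Des) was at 0.520 CPM in that tumor, in which Grem1 and Bmp5 were also lowest. Subepithelial myofibroblast or telocyte markers overlapped between groups in their sums (74.9 to 292 and 92.1 to 153 CPM), most of which came from F3. F3 was at 51.6, 173 and 282 CPM with Dnmt3a(+/+) BM and at 64.3 to 134 CPM with Dnmt3a(+/-) BM. Of the 6 tested genes of this list, 5 had a fold change above 0 and 1 below, with a median of 0.95 on the log2 scale. Gene by gene, 0 were without overlap. Foxl1, a defining gene of telocytes, was at 0.398 to 2.87 CPM with Dnmt3a(+/+) BM and at 1.82 to 9.70 CPM with Dnmt3a(+/-) BM, highest in replicate 2. Differentiated colonocyte markers had a fold change below 0 for 8 of 8 genes, 2 of them at an unadjusted p under 0.05, like 5.2% of all genes tested. They summed to 1607 to 1821 CPM with Dnmt3a(+/+) BM and to 747 to 1269 CPM with Dnmt3a(+/-) BM. The sums did not overlap and lay in the direction of Bmp2, but gene by gene only 1 of the 8 did not overlap. Slc26a3 (2.14 CPM), Car4 (3.52), Aqp8 (3.55) and Slc37a2 (2.45) were lowest of all in Dnmt3a(+/+) replicate 3. Car1 was highest in Dnmt3a(+/-) replicate 4, at 350 CPM. Epithelial markers overlapped at 19488 to 38518 and 10854 to 24707 CPM, with 9 of 10 below 0. Leukocyte markers overlapped as well, at 59.4 to 129 and 51.7 to 246 CPM. Enteric neuron and glia markers summed to 8.14 to 9.79 and to 15.1 to 40.0 CPM, most of it from Ret, and Sox10, Elavl4 and Gfap were at 0 in at least 1 tumor. Smooth muscle, myofibroblast, colonocyte and enteric cells were not tested for their part in the values of the Bmp genes.

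**Figure D5:**
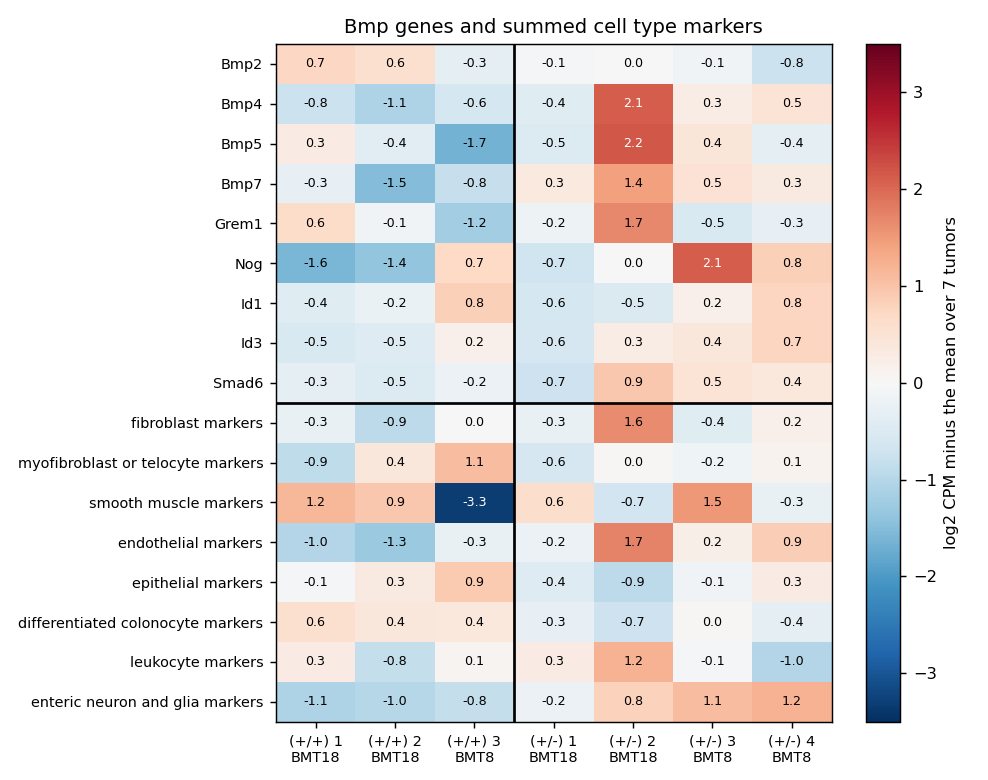
Heat map of log2 CPM minus the mean over the 7 tumors for the 9 genes (above the black line) and the summed markers of 8 cell types (below it), with tumors in columns by graft, replicate and experiment. The column of Dnmt3a(+/-) replicate 2 is high for Bmp4, Bmp5, Bmp7 and Grem1 and for fibroblast and endothelial markers, and the column of Dnmt3a(+/+) replicate 3 is low for smooth muscle markers, Bmp5 and Grem1.

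For each of the 9 genes, the closest pattern over the 7 tumors was sought among 13517 other genes with a mean of at least 1 CPM, by the root mean square difference of mean-centered log2 CPM. Bmp4 was closest to Col18a1, which encodes a basement membrane collagen, with a difference of 0.14. Col18a1 was at 14.4 to 21.1 CPM with Dnmt3a(+/+) BM and at 28.0, 147, 33.2 and 39.8 CPM with Dnmt3a(+/-) BM. Bmp5 was closest to Gucy1b1 (0.23), a subunit of the soluble guanylate cyclase, Bmp7 to Castor2 (0.12), Grem1 to St8sia5 (0.15) and Smad6 to Dpysl3 (0.13). Bmp2 was closest to Umad1 (0.092), Id1 to Aprt (0.082), Id3 to Aspscr1 (0.072) and Nog to Gm13203 (0.34). Among the 9 genes themselves the closest pairs were Id3 with Smad6 (0.33) and Id1 with Id3 (0.41). Bmp4 with Bmp7 had 0.47 and Bmp5 with Grem1 0.48. Each of these pairs was looser than many others. Of the 13517 genes, 800 were nearer to Id3 than Smad6 was, and 1813 were nearer to Id1 than Id3 was. For Bmp4, 244 were nearer than Bmp7 was, and for Bmp5, 47 were nearer than Grem1 was.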

How the data were processed

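Polyadenylated RNA of 7 whole colon tumors was sequenced by the authors. They trimmed reads with Trimmomatic, aligned them to mm10 with STAR 2.7.3a and deposited the estimated counts of RSEM v1.2.31, which are whole numbers with no scaling. The annotation release is not given in the sources used here. Columns were matched to tumors by name.

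The main test was edgeR's quasi-likelihood test (4.0.16, R 4.3.3) on genes kept by filterByExpr, with TMM scaling, the graft as the 1 term and Benjamini-Hochberg adjusted p-values. CPM per kb used merged GENCODE M21 exons. Log2 CPM for permutation tests and pattern likeness used a prior count of 2. Permutation tests were exact and two-sided over 35 splits of the tumors. The labels name separate tumors, and p-values measure the spread between them.

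Alternatives were DESeq2 1.42.0, RLE or unscaled library sizes, other filters, robust dispersion, the experiment as covariate, the replicate number as block, BMT18 alone and each tumor left out. The genes, the lists and the alternatives were chosen with earlier results of these data known. Named were the 9 genes, listed pathway genes at an unadjusted p under 0.05, receptors of Bmp ligands, other Id genes, the nearest pattern of each gene, and the most abundant and absent markers. Other single marker genes, such as Pdgfra, Des, Foxl1 and Car1, and the sex-linked genes were added after their values were seen. The comparison of experiments and DESeq2 with each tumor left out were also added after the data had been seen.

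The tests were checked on simulated data for Dnmt3a(+/-) against Dnmt3a(+/+) BM with 200 of 15810 genes changed 4-fold. With the dispersion of each gene, edgeR recovered 109 with 3 false calls and DESeq2 155 with 77.

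No pair of tumors held the same library. The closest, replicate 1 of either graft, had a Spearman correlation of 0.984 and differed beyond sampling noise. Genes without a symbol held 0.104% of counts. The authors' tests were not used here, and 1 marker gene is not reported here.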

Additional observations from a re-analysis of the deposited data

Results flagged for a closer look

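In 33 values examined over the 4 tumors with Dnmt3a(+/-) BM, 5 had 1 tumor whose gap to its neighbor was beyond Dixon's critical value for 4 tumors, against about 1.65 that chance gives. All 5 were in Dnmt3a(+/-) replicate 2, where Bmp5 was at 18.21 CPM, Bmp7 at 46.9 CPM, Grem1 at 31.4 CPM, Acvrl1 at 18.09 CPM and the summed fibroblast markers at 1099 CPM. The values come from 1 library and are therefore not independent of each other. Bmp4 in the same tumor, at 21.7 CPM, had a gap of 0.821 of the range, just under the critical value. None of the 9 genes differed between experiments in its graft difference at an adjusted p under 0.05 (edgeR). Groups of 3 tumors were not examined in this way.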

How the results depend on the processing

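In edgeR every setting and every tumor left out gave 0 genes called, against 299 with DESeq2 (243 higher, 56 lower) and 63 to 695 with DESeq2 and 1 tumor left out. The number at an unadjusted p under 0.05 was 1744, 2163 with DESeq2, and 883 (without Dnmt3a(+/+) replicate 2) to 2143 (without Dnmt3a(+/-) replicate 1) with 1 tumor left out, with 1114 without Dnmt3a(+/-) replicate 2. On raw library sizes 85.4% of these genes were higher with Dnmt3a(+/-) BM, against 52.9% with TMM. The median of all genes then moved to 0.21, and 3 log2 fold changes changed sign, to 0.11 for Id1, 0.16 for Bmpr1a and 0.013 for Acvr2a. Among the 9 genes DESeq2 called Bmp7, at 1.54, and without Dnmt3a(+/-) replicate 1 also Bmp4, at 2.03 (adjusted p = 0.00855). The DESeq2 call of Bmp7 was lost without Dnmt3a(+/+) replicate 2 or Dnmt3a(+/-) replicate 2 or 3. With 1 tumor left out, the ranges that crossed 0 were -0.24 to 1.05 for Grem1, -0.44 to 0.38 for Id1, -0.25 to 0.10 for Bmpr1a, -0.073 to 0.17 for Acvr1, -0.13 to 0.37 for Acvr2b and -0.065 to 0.78 for Id4. In BMT18 alone the sign changed for Bmpr1a (0.0084), Acvr2b (-0.14) and Id4 (-0.13), and with the experiment as covariate for Bmpr1a (0.083). Same-numbered tumors did not pair throughout: the correlations of their deviations were 0.568, 0.0711 and -0.0377 for replicates 1 to 3. Tumors with unlike numbers had -0.466 to 0.489, so the pair of replicate 1 was the highest. With the replicate number as a block, 0 genes were called, 1885 had an unadjusted p under 0.05, Bmp7 was at 1.62 (edgeR adjusted p = 0.413), Acvr2b changed sign (-0.17), and no other call or sign among the named genes changed. The causes of these changes were not tested. In edgeR the remaining values for the 9 genes kept their sign and their side of the threshold. Nog could not be fitted with at least 1 CPM in 3 tumors or in BMT18 alone. Between experiments, the genes called were 1, 14 with no filter on low counts and 0 to 72 with 1 tumor left out, the latter without Dnmt3a(+/-) replicate 2. Depth limits Nog most, at 3 to 52 counts per tumor. With 3 tumors against 4, the permutation test cannot go below 0.0286.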
